A study of Mus musculus with 8 samples.

Results

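The genes described here encode collagens and the proteins that modify, fold, trim and cross-link them. They were taken from the list of measured genes as every symbol made of Col, a number, a and a number, together with 15 processing genes: Lox, Loxl1, Loxl2, Loxl3, Loxl4, Plod1, Plod2, Plod3, P4ha1, P4ha2, P4ha3, Serpinh1, Bmp1, Pcolce and Pcolce2. This gave 47 of the 13439 genes listed, of which 8 are fibrillar collagens, 8 are collagens of basement membranes, 16 are other collagens and 15 are processing genes. RNA was measured in the left ventricle of mice by sequencing of stranded mRNA libraries, with 8 libraries in 4 groups of 2. Floxed mice (Lin28afl/fl) were operated on as sham controls or by transverse aortic constriction (TAC), in which a tie on the aorta raises the pressure against which the left ventricle pumps. Hearts labelled Lin28aCko, a cardiac specific knockout of Lin28a (cKO), had the same 2 operations, and the floxed mice are named as their control littermates. Hearts with TAC were taken on day 5, and the labels give no day for sham hearts, no age, and no promoter for the recombinase that makes the knockout. Lin28a is an RNA-binding protein that keeps let-7 microRNAs from maturing. Its own transcript was not analysed here, and the labels alone give the genotypes. The labels call the libraries duplicates and do not say that each came from its own animal, and p-values therefore cover the spread between these libraries alone.

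Collagens are secreted as procollagen chains that wind into a triple helix in the endoplasmic reticulum. Prolyl hydroxylases (the P4ha genes) and lysyl hydroxylases (the Plod genes) modify the chains, and the chaperone encoded by Serpinh1 binds the folded helix. Outside the cell the proteinase Bmp1, helped by Pcolce and Pcolce2, removes the carboxyl end of the fibrillar procollagens, and lysyl oxidases (Lox and the Loxl genes) start the cross-links between molecules. In the heart, fibrillar collagen between the muscle cells is made mainly by fibroblasts, and its build-up under pressure load is known as fibrosis. Type IV collagen forms the network of the basement membrane around muscle cells and capillaries.

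Libraries held between 10315902 and 21871570 reads assigned to genes, and 3 reads, the limit that a count of 0 allows, corresponded to 0.137 to 0.291 CPM (the usual scale of reads of a gene relative to all reads assigned to genes). This limit covers counting error only. Markers of heart muscle, summed over 9 of 9 genes, lay between 57961 and 88805 CPM, with the floxed TAC libraries lowest. Libraries of 1 group differed by more than counting error, with chi-square over degrees of freedom of 11.5 to 40.0 across genes. Myl7, an atrial myosin light chain, marked 3 libraries, with 133 CPM for floxed sham 2, 65.0 for cKO sham 2 and 66.2 for cKO TAC 2. The other 5 libraries held 0.511 to 6.16 CPM of it. Xist, the RNA of the inactive X chromosome, reached 44.3 CPM in 1 library, cKO sham 2, which had 0 CPM of Y-linked Ddx3y. The other 7 held up to 0.173 CPM of Xist and 32.3 to 63.2 CPM of Ddx3y. Of the 47 genes, 38 were higher in cKO TAC 2 than in cKO TAC 1, with a median ratio of 1.5, and 41 were higher in floxed TAC 2 than in floxed TAC 1, with a median ratio of 1.20. The same count over all genes is not given here, so a shift of the whole library cannot be told apart from one of these genes. Counts of calls are given below with and without these libraries, while levels, shares and ratios are given library by library or as group ranges.

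Because Lin28a acts on let-7, the matches to the let-7 seed in collagen transcripts are shown first, together with those to miR-29, a family known for targeting collagen transcripts. Mature microRNAs from RefSeq are written 5′ to 3′ with the seed, bases 2 to 8, in capitals. Members of a family share it.
mmu-let-7a-5p: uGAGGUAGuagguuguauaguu
mmu-let-7b-5p: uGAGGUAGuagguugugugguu
mmu-let-7g-5p: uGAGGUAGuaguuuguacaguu
mmu-miR-29a-3p: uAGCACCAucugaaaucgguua
mmu-miR-29b-3p: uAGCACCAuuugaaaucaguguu
mmu-miR-29c-3p: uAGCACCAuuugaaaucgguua
The reverse complements, CTACCTC for let-7 and TGGTGCT for miR-29, were searched on the transcript strand of the 3′ UTR of the longest principal transcript of each gene (GENCODE M21, GRCm38). A let-7 match was present in 7 of the 47 genes (14.9%), which were Col1a1, Col1a2, Col3a1, Col5a2, Col27a1, Col23a1 and Col26a1. These include 5 of the 8 fibrillar collagens (62.5%), no basement membrane collagen and no processing gene, against 9.56% of the 12037 tested genes that have a 3′ UTR. A miR-29 match was present in 24 of the 47 (51.1%), 7 of 8 fibrillar, 7 of 8 basement membrane, 6 of 16 other collagens and 4 of 15 processing genes, against 14.8% of the same 12037 genes. The median 3′ UTR was 1553 bases for fibrillar members and 1055 bases for all tested genes, so the lengths differ as well. From 4 members, 5 sites are printed on the transcript strand with the match in capitals.
Col1a2, let-7, chr6:4541057-4541085, plus strand: caaacttccaaaggtttgaaCTACCTCaa
Col3a1, let-7, chr1:45349130-45349158, plus strand: tgtcctcctccctatgttaaCTACCTCaa
Col5a2, let-7, chr1:45375100-45375128, minus strand: ccaacatttcttagcatgacCTACCTCat
Col3a1, miR-29, chr1:45348962-45348990, plus strand: ccaacttcaaaatgtctcaaTGGTGCTat
Col4a1, miR-29, chr8:11199760-11199788, minus strand: cctctgccaccgtcacaacaTGGTGCTac
Both kinds of match were present in Col1a1, Col3a1, Col5a2, Col26a1 and Col27a1. A seed match is a description of the letters, not evidence that the microRNA acts there, and microRNA levels were not measured.

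Promoter windows of RefSeq (GRCm38.p6), from 250 bases before to 50 bases after the transcript start, were present for 35 of the 47 members, in 37 windows. Bmp1, Col12a1, Col14a1, Col1a1, Col26a1, Col4a3, Col5a2, Lox, Loxl1, Loxl2, Loxl3 and Plod2 had none. Short motifs were searched on both strands. The GC box GGGCGG was in 27 of 37 member windows (73.0%) and in 35.7% of all 32851 windows. The latter were not limited to genes tested here, unlike the background of the microRNA matches. CCAAT was in 10 (27.0%) against 37.4%, TATAAA in 4 (10.8%) against 13.6%, and TGANTCA in 1 (2.70%), that of Col6a1, against 7.81%. The 250 bases before the start are printed for Col1a2 and Col3a1, abundant fibrillar members whose transcripts rose together below, with these motifs in capitals.
Col1a2, chr6:4505368-4505617, plus strand: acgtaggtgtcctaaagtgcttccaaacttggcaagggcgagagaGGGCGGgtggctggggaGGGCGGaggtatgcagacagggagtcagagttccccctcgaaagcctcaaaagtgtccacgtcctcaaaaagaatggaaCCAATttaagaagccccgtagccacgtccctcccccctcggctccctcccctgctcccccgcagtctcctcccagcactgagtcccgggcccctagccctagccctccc
Col3a1, chr1:45311288-45311537, plus strand: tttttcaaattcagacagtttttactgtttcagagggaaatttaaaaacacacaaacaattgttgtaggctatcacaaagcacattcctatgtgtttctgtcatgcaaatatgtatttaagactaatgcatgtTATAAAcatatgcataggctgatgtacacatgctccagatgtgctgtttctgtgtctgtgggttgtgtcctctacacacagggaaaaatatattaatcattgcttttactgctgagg
The Col1a2 stretch holds 2 GC boxes, 205 and 188 bases before the start, and CCAAT 109 bases before it. The Col3a1 stretch holds none of these and has TATAAA 117 bases before the start.

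Transcripts of the 47 genes together took 0.339% and 0.370% of the reads in floxed sham libraries, and 2.0% and 2.61% in floxed TAC libraries. In cKO hearts they took 0.418% and 0.412% after sham and 0.614% and 1.08% after TAC. Both TAC groups lay above both sham groups, and the cKO TAC libraries lay below the floxed TAC libraries. The makeup changed as well. Fibrillar collagens made up 22.1% to 24.2% of the reads of these genes in floxed sham, 54.0% to 54.4% in floxed TAC, 21.3% to 23.6% in cKO sham and 37.3% to 41.6% in cKO TAC libraries. Basement membrane collagens made up 36.0% to 40.0%, 17.9% to 19.8%, 36.3% to 40.6% and 30.3%. The plot of reads by role shows these shares.

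**Figure D1:**
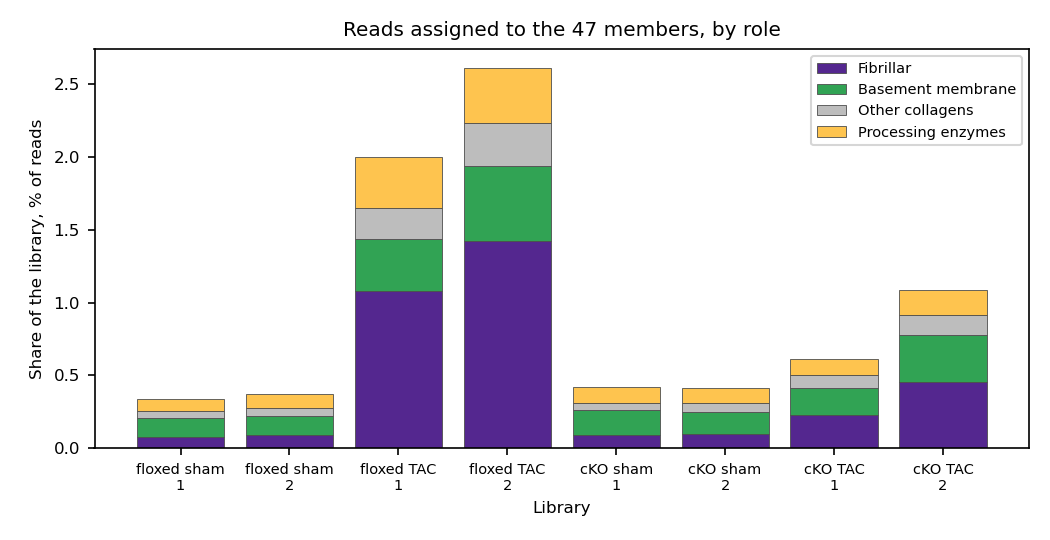
Share of each library's reads (y axis, percent) assigned to the 47 genes, stacked by role, in each of the 8 libraries (x axis, group and replicate number). The floxed TAC libraries stand at 2.0% and 2.61%, the cKO TAC libraries at 0.614% and 1.08%, and all 4 sham libraries between 0.339% and 0.418%.

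With Lin28a intact, the response of these genes to TAC is that of the floxed hearts against their sham controls. Nearly all of them rose: of the 45 that reached 1 CPM in at least 2 libraries and were tested, 38 were higher after TAC, 2 were lower (Col4a3 and Col6a6) and 5 did not pass the threshold (limma on log2(CPM + 1), adjusted p under 0.05 over 13120 genes). In the same comparison 42.4% of all tested genes passed, with 27.9% of all tested genes higher and 14.5% lower. Col11a1, Col26a1, Col28a1, Col8a2, Col9a2 and P4ha3 reached 1 CPM in TAC libraries alone, so their place among the tested genes already favours a difference, and the counts are a description. All 8 fibrillar collagens and all 15 processing genes were higher, as were 5 of 8 basement membrane collagens and 10 of the 14 other collagens tested. Median log2 differences were 3.52 for fibrillar, 1.42 for basement membrane, 2.19 for other collagens and 2.01 for processing genes, against 0.14 for all genes tested. With the libraries scaled to each other by relative log expression (RLE) the median of all genes became 0.00, and higher and lower calls among all genes changed from 3655 and 1907 to 2974 and 2592, whereas 36 members were then higher and 2 lower. Both libraries of one group lay above both of the other for 40 members that were higher and 3 that were lower after TAC, against 46.7% and 28.9% of all tested genes. Leaving out any 1 library kept 36 or more of the 40 calls, and the calls lost were those of Col4a3, Plod1 and P4ha2, besides Col11a1, which could not be tested without either floxed TAC library. Without the 3 libraries with atrial transcripts 38 calls were kept. Since these are whole ventricles, more cells of a type and more RNA per cell cannot be told apart.

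Among the fibrillar collagens, type I, III and V chains showed the largest TAC differences on the log2(CPM + 1) scale, and Col11a1, low in sham hearts, had the largest ratio of mean CPM at 54.5. Col1a1 (chromosome 11, 94936224 to 94953042), the main chain of type I collagen, was at 165 and 207 CPM in floxed sham, 3413 and 4100.3 in floxed TAC, 191 and 221 in cKO sham and 509 and 1248 in cKO TAC libraries. The floxed TAC libraries were the highest, and the cKO TAC libraries lay between them and the sham libraries without overlap. Col1a1 rose by 4.33 ± 0.33 (adjusted p = 2.29e-05) on the log2 scale (± SE), and its mean CPM was 20.2-fold higher. Col1a2 (chromosome 6, 4504814 to 4541544), the partner chain, was at 190.2 and 217 CPM in floxed sham, 2732 and 3247 in floxed TAC, 204 and 222 in cKO sham and 539.7 and 1042 in cKO TAC libraries. Its groups had the same order, and it rose by 3.87 ± 0.25 (adjusted p = 1.47e-05). Col3a1 (chromosome 1, 45311538 to 45349706), which forms fibrils with type I collagen, was at 269.8 and 336 CPM in floxed sham, 3445 and 5183 in floxed TAC, 343 and 400.8 in cKO sham and 934 and 1699.8 in cKO TAC libraries, again with no overlap between TAC and sham libraries of either genotype, and rose by 3.81 ± 0.27 (adjusted p = 1.94e-05).

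Type V collagen helps to start fibrils of type I collagen. Col5a1 (chromosome 2, 27886425 to 28039514) was at 74.6 and 84.4 CPM in floxed sham, 649.7 and 919 in floxed TAC, 80.6 and 75.3 in cKO sham and 171 and 272 in cKO TAC libraries and rose by 3.27 ± 0.22 (adjusted p = 1.60e-05) in floxed hearts. Col5a2 (chromosome 1, 45374321 to 45503282) was at 39.4 and 38.5 CPM in floxed sham, 474 and 634 in floxed TAC, 39.2 and 33.9 in cKO sham and 116 and 203 in cKO TAC libraries and rose by 3.78 ± 0.23 (adjusted p = 1.35e-05). Both had all TAC libraries above all sham libraries in each genotype. Col5a3 (chromosome 9, 20770050 to 20815067) was at 9.34 and 11.9 CPM in floxed sham, 80.1 and 111 in floxed TAC, 33.3 and 18.1 in cKO sham and 17.3 and 48.0 in cKO TAC libraries, and it rose by 3.05 ± 0.42 (adjusted p = 0.000381) in floxed hearts. In cKO hearts its sham and TAC libraries overlapped, since both cKO sham libraries lay above cKO TAC 1. Col27a1 was low, at 0.714 and 1.32 CPM in floxed sham, 4.85 and 8.83 in floxed TAC, 0.776 and 1.59 in cKO sham and 2.04 and 3.0 in cKO TAC libraries, with a difference of 1.93 ± 0.33 (adjusted p = 0.00126). Col11a1, a fibrillar chain best known from cartilage, was nearly absent in sham hearts, at 0.0649 and 0.12 CPM in floxed sham, 6.17 and 3.90 in floxed TAC, 0.0969 and 0.133 in cKO sham and 0.386 and 0.403 in cKO TAC libraries. Over the 2 libraries of a group this was 219 reads after TAC against 3 after sham, a ratio of 54.0 with a 95% counting interval of 18.2 to 264. Its fitted difference of 2.44 ± 0.26 (adjusted p = 0.000106) depends on the added 1 CPM. Markers of cartilage cells, of which 2 of 4 were listed (Acan and Sox9), summed to 0.60 to 2.72 CPM in floxed sham, 19.1 to 35.7 in floxed TAC, 1.55 to 2.59 in cKO sham and 7.56 to 12.4 CPM in cKO TAC libraries, with Acan at 0 CPM in floxed sham 2. Most of each sum was Sox9, at 17.7 and 33.1 CPM in floxed TAC and 4.80 and 11.1 in cKO TAC libraries. Acan was at 1.37 and 2.56 CPM in floxed TAC and 2.76 and 1.33 in cKO TAC libraries, which overlap. The part of these markers in the result was not tested.

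**Figure D2:**
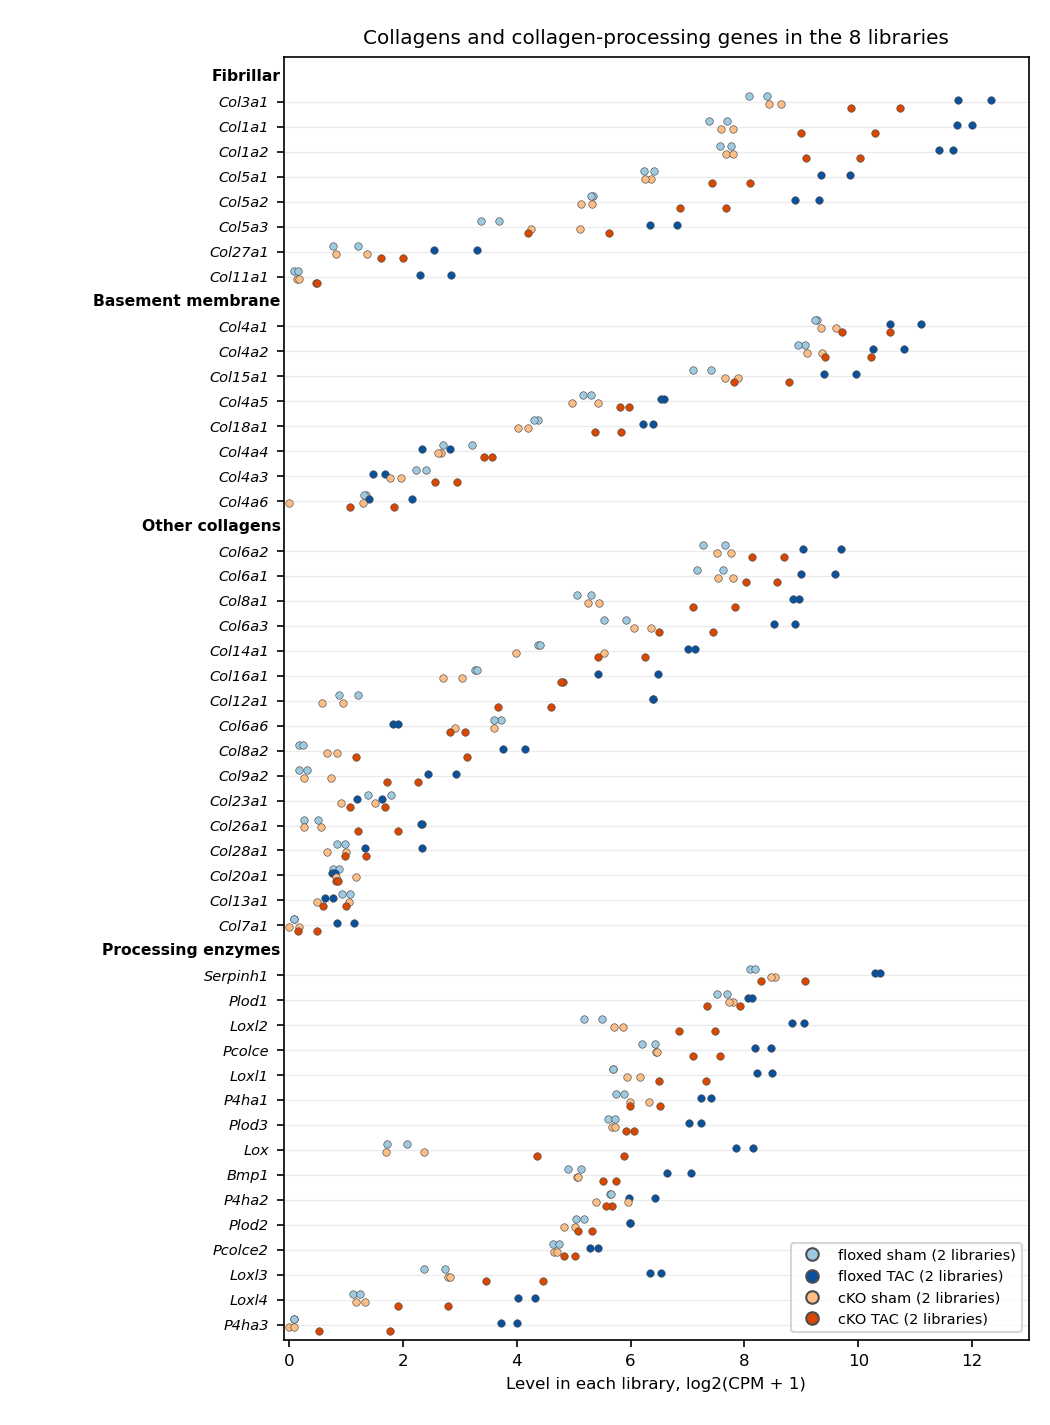
Level of each of the 47 genes as log2(CPM + 1) (x axis) in each of the 8 libraries (points, 2 per group), ordered within each role by mean CPM. Floxed TAC points lie farthest right for most genes. Among the exceptions are Col4a3, Col4a4 and Col6a6, for which the cKO TAC points lie to the right of the floxed TAC points.

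The collagens of basement membranes rose less, and not all of them rose. Col4a1 and Col4a2 encode the chains of the type IV collagen found in nearly all basement membranes, and they lie head to head on chromosome 8 with annotated starts 21 bases apart. Col4a1 (chromosome 8, 11198423 to 11312826) was at 620.4 and 600.1 CPM in floxed sham, 1504 and 2209 in floxed TAC, 784 and 645 in cKO sham and 842 and 1509 in cKO TAC libraries. Col4a2 (chromosome 8, 11312805 to 11449287) was at 531 and 493 CPM in floxed sham, 1226 and 1776 in floxed TAC, 660.2 and 548 in cKO sham and 679.9 and 1199 in cKO TAC libraries. For both genes floxed TAC 2 was the highest library, and cKO TAC 2 lay close to floxed TAC 1. In floxed hearts Col4a1 rose by 1.58 ± 0.26 (adjusted p = 0.00107) and Col4a2 by 1.53 ± 0.25 (adjusted p = 0.00111). Col4a5 (chromosome X, 141475385 to 141689234), on the X chromosome, was at 34.9 and 38.5 CPM in floxed sham, 91.5 and 94.7 in floxed TAC, 30.3 and 41.9 in cKO sham and 55.3 and 62.1 in cKO TAC libraries, and rose by 1.32 ± 0.16 (adjusted p = 0.000185).

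Col15a1 and Col18a1 encode collagens that carry sugar chains and lie at the outer side of basement membranes; Col18a1 is the source of the fragment endostatin. Col15a1 (chromosome 4, 47208161 to 47313167) was at 136 and 169 CPM in floxed sham, 675 and 989 in floxed TAC, 199.8 and 235 in cKO sham and 225 and 439.7 in cKO TAC libraries and rose by 2.42 ± 0.28 (adjusted p = 0.000175). Col18a1 (chromosome 10, 77052178 to 77166548) was at 19.8 and 18.7 CPM in floxed sham, 73.2 and 83.4 in floxed TAC, 17.4 and 15.3 in cKO sham and 40.5 and 55.8 in cKO TAC libraries and rose by 1.97 ± 0.17 (adjusted p = 3.59e-05). Its TAC libraries were above its sham libraries in both genotypes.

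Col4a3 and Col4a4, which with Col4a5 form the type IV network of the kidney filter and a few other sites, were not among the members that rose. They share a head-to-head start on chromosome 1, with annotated starts 72 bases apart. Col4a3 (chromosome 1, 82586921 to 82722059) was at 3.70 and 4.26 CPM in floxed sham, 1.78 and 2.23 in floxed TAC, 2.42 and 2.92 in cKO sham and 6.73 and 4.90 in cKO TAC libraries, so floxed TAC libraries were the lowest and cKO TAC libraries the highest of all. It fell by 0.73 ± 0.23 in floxed hearts (adjusted p = 0.0292), a call that was lost without any single one of the 4 floxed libraries, with an adjusted p of up to 0.156 without floxed TAC 1. Of the exonic bases of Col4a3, 5.65% overlap an annotated gene on the opposite strand, and whether strand was used in counting is not given in the sources used here. Col4a4 (chromosome 1, 82448423 to 82586849) was at 8.24 and 5.52 CPM in floxed sham, 4.07 and 6.13 in floxed TAC, 5.33 and 5.11 in cKO sham and 9.71 and 10.8 in cKO TAC libraries, and the difference of -0.37 ± 0.24 (adjusted p = 0.255) in floxed hearts did not pass. Col4a6 was at most 3.48 CPM in all libraries and at 0 CPM in cKO sham 1, where a count of 0 allows up to 0.291 CPM. Its TAC differences of 0.45 ± 0.44 (adjusted p = 0.451) and 0.81 ± 0.44 (adjusted p = 0.407) did not pass.

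Among the other collagens the largest TAC differences on the log2(CPM + 1) scale belonged to Col12a1, Col8a2 and Col8a1. Col12a1 (chromosome 9, 79598991 to 79718831), which sits on the surface of collagen fibrils, was low but detected in sham hearts. It was at 0.843 and 1.32 CPM in floxed sham, 82.7 and 82.9 in floxed TAC, 0.485 and 0.929 in cKO sham and 11.7 and 23.2 in cKO TAC libraries. It rose by 5.34 ± 0.30 (adjusted p = 7.37e-06). This was the largest difference among the 30 collagens tested on that scale, whereas the ratio of mean CPM was 76.5 for Col12a1 and 94.1 for Col8a2. Col8a1 (chromosome 16, 57624258 to 57754737), a short-chain collagen of vessel walls, was at 38.7 and 32.4 CPM in floxed sham, 464 and 499 in floxed TAC, 42.7 and 37.3 in cKO sham and 136 and 227 in cKO TAC libraries and rose by 3.73 ± 0.21 (adjusted p = 7.37e-06). Col8a2, its relative, was at 0.13 and 0.18 CPM in floxed sham, 12.6 and 16.6 in floxed TAC, 0.582 and 0.796 in cKO sham and 1.27 and 7.72 in cKO TAC libraries, rose by 3.74 ± 0.50 (adjusted p = 0.000327), and cKO TAC 2 lay far above cKO TAC 1. Col14a1 (chromosome 15, 55307750 to 55520803), another fibril-surface collagen, was at 19.7 and 20.3 CPM in floxed sham, 128 and 139.6 in floxed TAC, 14.9 and 45.1 in cKO sham and 41.8 and 74.9 in cKO TAC libraries, with cKO sham 2 above cKO TAC 1, and rose by 2.68 ± 0.41 (adjusted p = 0.000755). Col16a1 was at 8.56 and 8.82 CPM in floxed sham, 42.0 and 88.2 in floxed TAC, 5.53 and 7.17 in cKO sham and 27.2 and 26.5 in cKO TAC libraries and rose by 2.68 ± 0.29 (adjusted p = 0.000115).

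Type VI collagen forms beaded filaments near the cell surface. Col6a1 (chromosome 10, 76708792 to 76726168) was at 142 and 195 CPM in floxed sham, 506 and 769.7 in floxed TAC, 185 and 221 in cKO sham and 260.3 and 378 in cKO TAC libraries and rose by 1.90 ± 0.24 (adjusted p = 0.000237). Col6a2 (chromosome 10, 76595762 to 76623630), its neighbour on chromosome 10, was at 154 and 202 CPM in floxed sham, 521 and 828 in floxed TAC, 182 and 215 in cKO sham and 279.6 and 414 in cKO TAC libraries and rose by 1.89 ± 0.24 (adjusted p = 0.00027). Col6a3 (chromosome 1, 90765923 to 90843971), the long chain that joins them, was at 45.2 and 59.4 CPM in floxed sham, 365 and 470.2 in floxed TAC, 65.8 and 81.4 in cKO sham and 89.9 and 173 in cKO TAC libraries, and rose by 2.98 ± 0.27 (adjusted p = 5.09e-05). For these 3 genes the floxed TAC libraries lay above all others. Col6a6, a further chain of the family, was at 12.1 and 11.1 CPM in floxed sham, 2.56 and 2.74 in floxed TAC, 6.49 and 11.1 in cKO sham and 6.12 and 7.49 in cKO TAC libraries, and both floxed TAC libraries were the lowest. It fell by 1.79 ± 0.25 in floxed hearts (adjusted p = 0.000398).

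The low members of this group differed among themselves. Col9a2 was at 0.13 and 0.24 CPM in floxed sham, 4.43 and 6.64 in floxed TAC, 0.194 and 0.664 in cKO sham and 3.81 and 2.30 in cKO TAC libraries and rose by 2.45 ± 0.30 (adjusted p = 0.0002), and Col26a1 was at 0.195 and 0.42 CPM in floxed sham, 4.02 and 4.0 in floxed TAC, 0.194 and 0.465 in cKO sham and 2.76 and 1.33 in cKO TAC libraries and rose by 1.94 ± 0.28 (adjusted p = 0.000556). Col28a1 lay between 0.582 and 4.04 CPM and Col23a1 between 0.872 and 2.46 CPM, and their log2 differences of 0.92 and -0.18 in floxed hearts did not pass. Col13a1, a membrane collagen, was at 1.10 and 0.9 CPM in floxed sham, 0.549 and 0.697 in floxed TAC, 1.07 and 0.398 in cKO sham and 0.993 and 0.519 in cKO TAC libraries, and its difference of -0.30 did not pass. Col7a1 and Col20a1 did not reach the level needed for a test. Col7a1, the anchoring collagen of skin, had 43 reads in floxed TAC against 2 in floxed sham libraries, a ratio of 15.9 with a 95% counting interval of 4.14 to 135. Col20a1 stood between 0.686 and 1.26 CPM in all libraries.

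All 5 lysyl oxidases were higher after TAC in floxed hearts. Lox (chromosome 18, 52516067 to 52529867), which oxidises lysines of collagen and elastin for cross-linking, was at 3.18 and 2.28 CPM in floxed sham, 284 and 229 in floxed TAC, 4.17 and 2.26 in cKO sham and 19.5 and 58.2 in cKO TAC libraries. All 4 TAC libraries were above all 4 sham libraries. Lox rose by 6.11 ± 0.42 (adjusted p = 1.75e-05). On the log2(CPM + 1) scale this was the largest difference of the 45 tested members, whereas by the ratio of mean CPM P4ha3 was first at 219-fold, against 94.1-fold for Lox. Loxl2 (chromosome 14, 69609068 to 69695834), an oxidase also linked to type IV collagen, was at 35.4 and 44.2 CPM in floxed sham, 455 and 529.7 in floxed TAC, 51.4 and 57.4 in cKO sham and 115 and 178 in cKO TAC libraries and rose by 3.6 ± 0.20 (adjusted p = 7.25e-06). Loxl3 (chromosome 6, 83034173 to 83052562) was at 5.71 and 4.14 CPM in floxed sham, 79.8 and 91.9 in floxed TAC, 5.91 and 6.11 in cKO sham and 9.93 and 20.9 in cKO TAC libraries and rose by 3.88 ± 0.29 (adjusted p = 2.20e-05), although 11.6% of its exonic bases overlap Htra2 on the opposite strand. Loxl1 (chromosome 9, 58287738 to 58313186), which is needed for elastic fibres, was at 50.5 and 50.5 CPM in floxed sham, 297 and 355 in floxed TAC, 71.1 and 60.6 in cKO sham and 89.4 and 159 in cKO TAC libraries and rose by 2.66 ± 0.23 (adjusted p = 3.50e-05). Loxl4 was at 1.17 and 1.38 CPM in floxed sham, 15.1 and 19.0 in floxed TAC, 1.26 and 1.53 in cKO sham and 2.76 and 5.94 in cKO TAC libraries and rose by 2.98 ± 0.29 (adjusted p = 7.41e-05). In each of these genes the floxed TAC libraries were the highest.

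The chaperone and the hydroxylases act before secretion. Serpinh1 (chromosome 7, 99345376 to 99353239), the collagen chaperone HSP47, was at 273 and 289.6 CPM in floxed sham, 1259 and 1326 in floxed TAC, 369.8 and 354.3 in cKO sham and 310.4 and 531 in cKO TAC libraries. It rose by 2.2 ± 0.20 (adjusted p = 5.21e-05) in floxed hearts, while cKO TAC 1 lay below both cKO sham libraries. P4ha1 (chromosome 10, 59323296 to 59373304), the main catalytic prolyl hydroxylase subunit in many cells, was at 52.7 and 57.8 CPM in floxed sham, 149.8 and 169 in floxed TAC, 78.9 and 62.2 in cKO sham and 62.7 and 90.2 in cKO TAC libraries, and rose by 1.51 ± 0.18 (adjusted p = 0.000184). P4ha3 (chromosome 7, 100285520 to 100319699) was almost absent in sham hearts, at 0.0649 and 0.06 CPM in floxed sham, 15.1 and 12.3 in floxed TAC, 0 and 0.0664 in cKO sham and 0.441 and 2.42 in cKO TAC libraries. This was 594 reads against 2 in floxed hearts, a ratio of 220 with an interval of 60.5 to 1817, and its fitted difference was 3.78 ± 0.36 (adjusted p = 6.54e-05). P4ha2 stood between 41.1 and 84.8 CPM and rose by 0.56 ± 0.20 (adjusted p = 0.0452), a call lost under RLE scaling and without floxed sham 1, floxed sham 2 or floxed TAC 2, with an adjusted p of up to 0.296.

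Of the lysyl hydroxylases, Plod3 had the largest difference. It was at 47.8 and 52.2 CPM in floxed sham, 129 and 149 in floxed TAC, 50.3 and 52.1 in cKO sham and 59.2 and 65.6 in cKO TAC libraries and rose by 1.46 ± 0.12 (adjusted p = 3.21e-05), and 11.9% of its exonic bases overlap other genes. Plod2 (chromosome 9, 92542223 to 92608428), which hydroxylates lysines in the ends of the chain, was at 35.2 and 31.9 CPM in floxed sham, 62.8 and 62.7 in floxed TAC, 27.4 and 31.3 in cKO sham and 32.8 and 38.8 in cKO TAC libraries and rose by 0.89 ± 0.14 (adjusted p = 0.00075). Plod1 (chromosome 4, 147909753 to 147936767), which acts on helical lysines, was at 183 and 205 CPM in floxed sham, 266 and 281 in floxed TAC, 221 and 211 in cKO sham and 161 and 242 in cKO TAC libraries and rose by 0.50 ± 0.17 (adjusted p = 0.037), a call lost under RLE scaling and without any single one of the 4 floxed libraries (adjusted p up to 0.199).

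The genes that act on the ends of procollagen rose together in floxed hearts. Bmp1 (chromosome 14, 70474558 to 70520234), the procollagen C-proteinase, was at 28.9 and 33.8 CPM in floxed sham, 98.1 and 132 in floxed TAC, 32.3 and 32.7 in cKO sham and 44.8 and 52.3 in cKO TAC libraries and rose by 1.83 ± 0.16 (adjusted p = 4.24e-05). Pcolce (chromosome 5, 137605103 to 137613784), an enhancer of that cleavage, was at 72.6 and 85.1 CPM in floxed sham, 291 and 351 in floxed TAC, 86.1 and 87.7 in cKO sham and 136 and 189 in cKO TAC libraries and rose by 2.01 ± 0.16 (adjusted p = 3.00e-05). Pcolce2, its relative, was at 23.7 and 25.8 CPM in floxed sham, 38.1 and 42.2 in floxed TAC, 24.2 and 25.2 in cKO sham and 31.3 and 27.3 in cKO TAC libraries and rose by 0.67 ± 0.14 (adjusted p = 0.0034).

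Ratios between members were compared per kilobase of transcript, so that chain lengths do not enter. The partner chains of type IV collagen had a narrow range of ratios, with Col4a1 over Col4a2 at 1.14 to 1.19 in sham and 1.20 to 1.23 in TAC libraries, and all 4 TAC libraries above all 4 sham libraries. Col6a1 over Col6a2 lay between 0.880 and 0.989. Other pairs moved more. Col1a1 over Col1a2 was 0.782 to 0.897 in the 4 sham libraries and 1.13 to 1.14 in floxed TAC libraries, with 0.851 and 1.08 in cKO TAC libraries. Col5a1 over Col5a2 was 1.49 to 1.75 after sham and 1.06 to 1.17 after TAC in both genotypes. Col6a3 over Col6a1 was 0.139 to 0.145 in floxed sham and 0.278 to 0.329 in floxed TAC, and 0.162 to 0.168 and 0.157 to 0.209 in cKO sham and cKO TAC libraries. The chaperone moved less than its client: Serpinh1 over Col1a1 was 3.66 to 5.05 after sham, 0.843 to 0.962 in floxed TAC and 1.11 to 1.59 in cKO TAC libraries. These ratios are descriptions of 2 libraries a group, with no test.

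**Figure D3:**
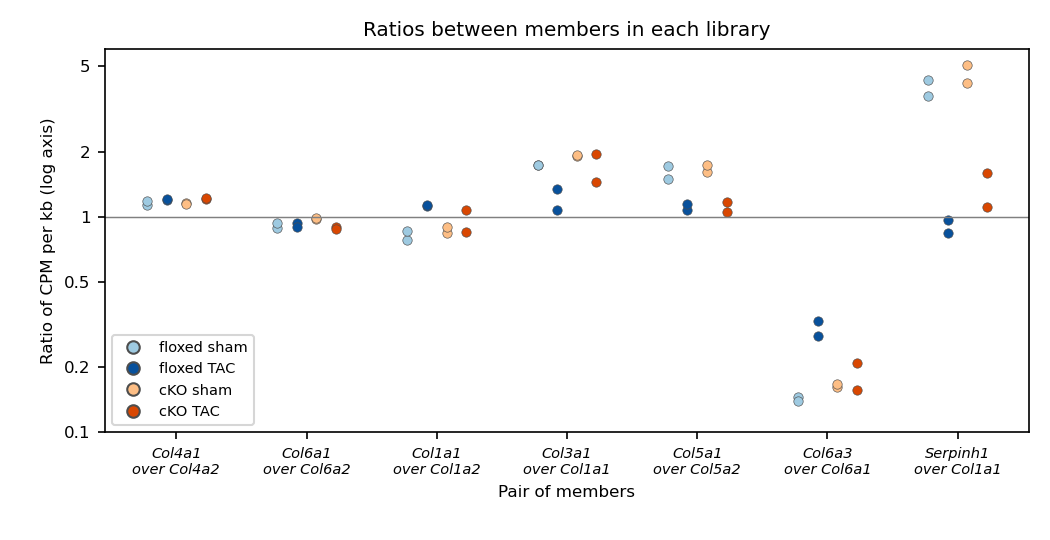
Ratio of CPM per kilobase of transcript (y axis, log scale) for 7 pairs of members (x axis), with 1 point per library coloured by group. Col4a1 over Col4a2 stays within 1.14 to 1.23, whereas Serpinh1 over Col1a1 lies at 3.66 to 5.05 in sham libraries and 0.843 to 1.59 in TAC libraries.

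In order of level per kilobase, Serpinh1 was first in floxed sham hearts at 124 ± 5.2 CPM per kilobase (SD, n = 2), followed by Col4a1 at 92.2 ± 2.2 and Col4a2 at 79.4 ± 4.2. In floxed TAC hearts Col3a1 was first at 775 ± 221, followed by Col1a1 at 634 ± 82.0, Serpinh1 at 568 ± 20.8 and Col1a2 at 559 ± 68.0. Within each of these libraries Col3a1 lay above Col1a1 (ratio 1.08 to 1.35) and Col1a1 above Col1a2 (ratio 1.13 to 1.14). Serpinh1 and Col1a2 did not keep the same order in both libraries, and no order was tested. The first 3 in cKO sham hearts were Serpinh1, Col4a1 and Col4a2, as in floxed sham hearts. In cKO TAC hearts they were Col3a1 at 237 ± 97.3, Serpinh1 at 185 ± 68.6 and Col4a1 at 178 ± 71.3. Their ranges over libraries overlapped, while each library held the same order.

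Other genes of the collagen pathway that are no members were described from a list of 34, of which 32 were tested. In floxed hearts 20 were higher after TAC, 3 were lower and 9 did not pass, with a median log2 difference of 1.16. Of 12 folding and modification genes 9 were higher and 1 was lower, among them P4hb, the partner subunit of the prolyl hydroxylases, which rose by 1.57 ± 0.15 (adjusted p = 5.26e-05). Of 4 genes that remove procollagen ends 2 were higher and 1 was lower, and Adamts2, which cuts the amino end, rose by 2.47 ± 0.21 (adjusted p = 3.39e-05). Of 4 breakdown and uptake genes 3 were higher, including the membrane proteinase Mmp14 with 3.07 ± 0.35 (adjusted p = 0.000148), whereas the gelatinase Mmp2 differed by 0.22 ± 0.19 (adjusted p = 0.39) and did not pass. Both regulators, Creb3l1 and Sparc, were higher. Of 4 transport genes 1 was higher and 1 lower.

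Markers of several cell types moved in the same comparison. Of 9 general fibroblast markers, 5 were higher and 2 lower after TAC in floxed hearts, with a median log2 difference of 0.33 and a range of -2.39 to 3.42. The sum of 9 of 9 was 2812 to 2938 CPM in floxed sham and 1817 to 2543 in floxed TAC libraries, and 2783 to 3198 and 2632 to 2640 CPM in cKO sham and cKO TAC libraries. Within it, Gsn was at 1935 and 1821 CPM in floxed sham and 485 and 765 in floxed TAC libraries. In cKO hearts Gsn was at 1770 and 2078 CPM after sham and 1304 and 1221 after TAC. Mean Gsn fell by more than the mean sum in both genotypes, so the sum does not describe the other markers. The sum of 6 of 6 activated fibroblast markers was 256 to 301 in floxed sham, 2529 to 2692 in floxed TAC, 185 to 190.4 in cKO sham and 714 to 1264 CPM in cKO TAC libraries. Macrophage markers (7 of 7) summed to 206 to 213, 901 to 907, 186 to 208 and 345 to 491 CPM in the same order. Smooth muscle markers (4 of 4) summed to 143 to 174, 323 to 342, 133 to 151 and 194 to 232 CPM, and endothelial markers (8 of 8) to 1249 to 1266, 1151 to 1215, 1387 to 1521 and 968 to 1493 CPM. Of the 4 smooth muscle markers 2 were higher after TAC in floxed hearts and 2 did not pass. Tagln was at 33.9 and 26.0 CPM in floxed sham and 185 and 149 in floxed TAC libraries. Myh11 was at 47.7 and 24.1 CPM in floxed sham and 24.6 and 46.5 in floxed TAC libraries. Heart muscle markers, of which 6 of 9 were lower after TAC in floxed hearts and 1 was higher, summed to 79715 to 88805 CPM in floxed sham, 57961 to 59895 in floxed TAC, 73462 to 76896 in cKO sham and 71040.3 to 82207 in cKO TAC libraries. Pericyte markers, of which 3 of 5 were lower and 1 was higher, summed to 1073 to 1170.4, 647 to 723, 1111 to 1306 and 713 to 900.5 CPM in that order. The part of these cell types in the results for collagens was not tested.

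TAC against sham in cKO hearts asks whether the same genes respond when Lin28a is lost. Fewer of them passed: 13 of 45 were higher, none was lower and 32 did not pass, where 2.53% of all tested genes passed, 2.09% higher and 0.442% lower. At an unadjusted p under 0.05, 30 of the 45 passed in limma, and the difference was above 0 in 42. The shares of all genes for these counts are not given here, so they are a description of the members alone. The 13 were the fibrillar Col1a1, Col1a2, Col3a1, Col5a1 and Col5a2, the basement membrane collagen Col18a1, the other collagens Col12a1, Col8a1, Col16a1 and Col9a2, and the processing genes Lox, Loxl2 and Pcolce. Median log2 differences were 1.61 for fibrillar, 0.75 for basement membrane, 0.92 for other collagens and 0.56 for processing genes, against 0.02 for all genes. Both cKO TAC libraries lay above both cKO sham libraries for 33 members and below for none, against 23.0% and 19.9% of all tested genes.

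On the log2(CPM + 1) scale the largest responses in cKO hearts belonged to Col12a1, with 3.37 ± 0.30 (adjusted p = 0.00116), and Lox, with 3.09 ± 0.42 (adjusted p = 0.00765). Col8a1 rose by 2.11 ± 0.21 (adjusted p = 0.00236), Col5a2 by 2.04 ± 0.23 (adjusted p = 0.0036) and Col1a1 by 1.95 ± 0.33 (adjusted p = 0.0174). Col18a1 rose by 1.49 ± 0.17 (adjusted p = 0.00348), next to its 1.97 in floxed hearts. Pcolce rose by 0.88 ± 0.16 (adjusted p = 0.0279) and Loxl2 by 1.38 ± 0.20 (adjusted p = 0.00894). Of the members that rose in floxed hearts, those with a difference within 0.25 of 0 here, a limit chosen after the values were seen, were Serpinh1 at 0.17 ± 0.20 (adjusted p = 0.755), P4ha1 at 0.10 ± 0.18 (adjusted p = 0.837), P4ha2 at -0.05 ± 0.20 (adjusted p = 0.934), Plod1 at -0.13 ± 0.17 (adjusted p = 0.769), Pcolce2 at 0.23 ± 0.14 (adjusted p = 0.437) and Col5a3 at 0.23 ± 0.42 (adjusted p = 0.845). None of these passed. Col4a3 and Col4a4 differed by 0.88 ± 0.23 (adjusted p = 0.0861) and 0.85 ± 0.24 (adjusted p = 0.113), above 0 in both, and did not pass. P4ha3 had 50 reads after TAC against 1 after sham, a ratio of 35.8 with an interval of 6.13 to 1441, and Col11a1 had 14 against 3, a ratio of 3.34 with an interval of 0.932 to 18.1. These intervals cover counting error alone and not the spread between libraries. The fitted P4ha3 difference of 1.10 did not pass, nor did that of Col11a1.

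These calls rest on few libraries. Without cKO sham 2, the library with Xist and with atrial transcripts, 4 of the 13 calls were kept (Col12a1, Col18a1, Col5a2 and Col8a1), and the adjusted p of the other 9 was 0.0508 to 0.118. Without cKO sham 1, 7 were kept. Without cKO TAC 1, whose values were the lower of the pair for 38 of the 47 genes, 22 members passed, 12 of them from the 13. Without the 3 libraries with atrial transcripts, Col12a1, Col8a1 and Lox were kept, and 4 members passed in all. DESeq2 on the recovered reads called 23 members.

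**Figure D4:**
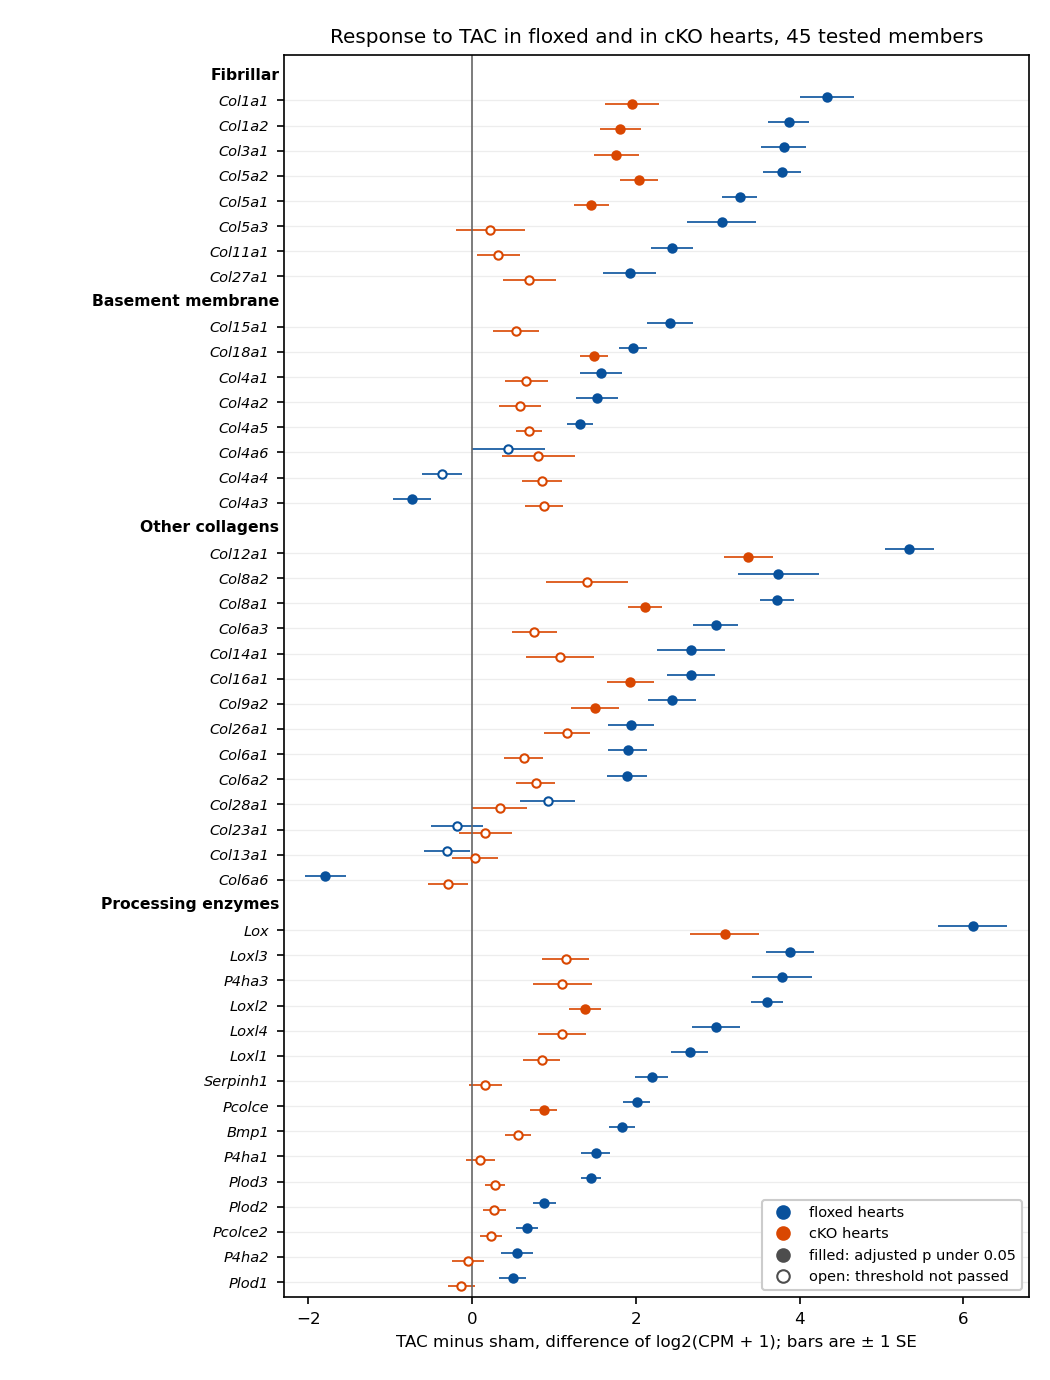
TAC minus sham as the difference of log2(CPM + 1) (x axis) for the 45 tested genes (y axis, grouped by role) in floxed and in cKO hearts, with bars of 1 SE and filled points where the adjusted p is under 0.05. In floxed hearts 40 points are filled, and in cKO hearts 13.

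Sham hearts of both genotypes were compared to see whether these genes differ without pressure load. None of the 45 tested members passed (limma, adjusted p under 0.05), and 7 of 13120 genes passed, 0.0534% of all, 0.0457% higher and 0.00762% lower. At an unadjusted p under 0.05 there were 2 members, Col5a3 and Loxl2, a count given without the share of all genes. The tools edgeR, limma-voom and DESeq2 called none. Col5a3 differed by 1.15 ± 0.42 (adjusted p = 0.599) and Loxl2 by 0.45 ± 0.20 (adjusted p = 0.644), both higher in cKO hearts. The median difference of the members was 0.07, against 0.02 for all genes. Libraries of the groups did not overlap for 14 members that were higher and 7 that were lower in cKO hearts, against 24.9% and 17.1% of all tested genes. Leaving out any 1 library, or the 3 with atrial transcripts, also gave 0 members.

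Hearts with TAC differed between genotypes. Of the 45 members tested, 31 were lower in cKO than in floxed hearts, 3 were higher (Col4a3, Col4a4 and Col6a6) and 11 did not pass, where 24.9% of all tested genes passed, 8.39% higher and 16.5% lower. All 8 fibrillar collagens and 13 of 15 processing genes were lower, as were 3 of 8 basement membrane collagens and 7 of 14 other collagens. Under RLE scaling the calls among all genes changed from 1101 higher and 2162 lower to 1420 and 1748, and 30 members were then lower and 3 higher. Both cKO TAC libraries lay below both floxed TAC libraries for 37 members and above for 3, against 40.2% and 23.6% of all tested genes.

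On the log2(CPM + 1) scale Lox was lower by the most, with a difference of -2.88 ± 0.42 (adjusted p = 0.00222), whereas floxed over cKO mean CPM was 6.61 for Lox, 9.56 for P4ha3 and 12.8 for Col11a1. Col11a1 reached 1 CPM in floxed TAC libraries alone, and P4ha3 in these and in cKO TAC 2. Neither gene would have met the level needed for a test without the floxed TAC group. Their place among the tested genes therefore favours a lower value in cKO hearts, and their calls are a description. P4ha3 differed by -2.72 ± 0.36 (adjusted p = 0.00165), Loxl3 by -2.49 ± 0.29 (adjusted p = 0.00106) and Col12a1 by -2.26 ± 0.30 (adjusted p = 0.00153). Col1a1 differed by -2.23 ± 0.33 (adjusted p = 0.00233), a mean CPM 4.27-fold lower in cKO hearts, and Col1a2, Col3a1, Col5a1 and Col5a2 by -1.99, -1.74, -1.84 and -1.83. Serpinh1 differed by -1.67 ± 0.20 (adjusted p = 0.00117) and Loxl2 by -1.77 ± 0.20 (adjusted p = 0.000968). Smaller differences were seen for Plod2 with -0.80 ± 0.14 (adjusted p = 0.00408) and Pcolce2 with -0.44 ± 0.14 (adjusted p = 0.0416), and the latter did not pass under RLE scaling. Col4a1 and Col4a2 differed by -0.69 ± 0.26 (adjusted p = 0.0801) and -0.71 ± 0.25 (adjusted p = 0.0684) and did not pass. Nor did Plod1, P4ha2, Col14a1, Col9a2, Col26a1, Col28a1, Col4a6, Col13a1 or Col23a1.

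The 3 genes on the other side were Col4a3, with 1.17 ± 0.23 (adjusted p = 0.00709), Col6a6, with 1.09 ± 0.25 (adjusted p = 0.0123), and Col4a4, with 0.90 ± 0.24 (adjusted p = 0.0246). All 3 calls were lost without floxed TAC 1, where the adjusted p was 0.0560 for Col4a3, 0.0682 for Col6a6 and 0.165 for Col4a4, and those of Col4a3 and Col4a4 also without cKO TAC 1, where it was 0.0503 and 0.076. The Col6a6 call was also lost without floxed TAC 2, and the Col4a4 call without cKO TAC 2 and when the 3 atrial libraries were left out. Leaving out floxed TAC 2 kept 22 of the 34 calls, 26 stayed without floxed TAC 1, 23 without cKO TAC 1, and 32 without cKO TAC 2. Without the 3 libraries with atrial transcripts 31 were kept, and Col16a1, Col4a4 and Pcolce2 were lost. In all, 21 calls were kept in every alternative in which the gene was tested. The lone library left in a group is then assumed to vary like the other groups. Col11a1 could not be tested without either floxed TAC library, since it then missed the level needed for a test.

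The genotype by surgery interaction tests whether the response to TAC itself differed, by subtracting the floxed response from the cKO response. It passed for 26 of the 45 members, 23 with a smaller rise in cKO hearts and 3 (Col4a3, Col4a4 and Col6a6) with a value above 0, where 14.1% of all tested genes passed, 4.93% above 0 and 9.18% below. By role, 7 of 8 fibrillar collagens, 11 of 15 processing genes, 3 of 8 basement membrane collagens and 5 of 14 other collagens passed. Among all genes the calls changed under RLE scaling from 647 above 0 and 1204 below to 846 and 918, and 26 members passed as before. The comparisons of TAC hearts and of responses share their libraries and are not independent of each other.

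Among members that passed, the largest negative values on the log2(CPM + 1) scale were those of Lox, with -3.03 ± 0.59 (adjusted p = 0.0137), Col5a3, with -2.82 ± 0.59 (adjusted p = 0.0171), Loxl3, with -2.74 ± 0.41 (adjusted p = 0.00626) and P4ha3, with -2.68 ± 0.52 (adjusted p = 0.0128). Part of the Col5a3 value comes from sham hearts, where it was higher in cKO than in floxed hearts by 1.15, a difference that did not pass. P4ha3 and Col11a1, which also passed, would not have been tested without their floxed TAC libraries, which favours a negative value here as well. Type I collagen had -2.38 ± 0.46 (adjusted p = 0.0134) for Col1a1 and -2.06 ± 0.35 (adjusted p = 0.00943) for Col1a2. Serpinh1 had -2.03 ± 0.29 (adjusted p = 0.00542), Loxl2 -2.22 ± 0.28 (adjusted p = 0.00454) and Plod3 -1.18 ± 0.17 (adjusted p = 0.0058). Col15a1, with -1.88 ± 0.40 (adjusted p = 0.0176), was the one basement membrane collagen that passed with a negative value. The values above 0 were 1.61 ± 0.33 (adjusted p = 0.0155) for Col4a3, 1.5 ± 0.35 (adjusted p = 0.0241) for Col6a6 and 1.22 ± 0.34 (adjusted p = 0.0439) for Col4a4. Of these, the Col4a4 call was lost in 10 of 17 alternatives, which were the replicate block, each of the 8 libraries left out and the 3 atrial libraries left out, with an adjusted p of up to 0.171. The Col6a6 call was lost in 5 and the Col4a3 call in 3, each time with 1 library left out. Col4a1 and Col4a2, with -0.91 ± 0.37 (adjusted p = 0.122) and -0.94 ± 0.36 (adjusted p = 0.105), did not pass, and neither did Col18a1, with -0.48 ± 0.24 (adjusted p = 0.201).

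The interaction calls depend on floxed sham 1. Without it 5 of the 26 were kept (Col8a1, Loxl2, Loxl3, Plod3 and Serpinh1), the adjusted p of the other 21 was 0.0534 to 0.171, and the number of genes called in the whole table went from 1851 to 253. The same 5 were kept in every alternative run. Without floxed TAC 2, 16 were kept. Without cKO sham 2, the library with Xist, 22 were kept, and without the 3 libraries with atrial transcripts 25 were kept. No member past the threshold changed sign in any alternative.

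**Figure D5:**
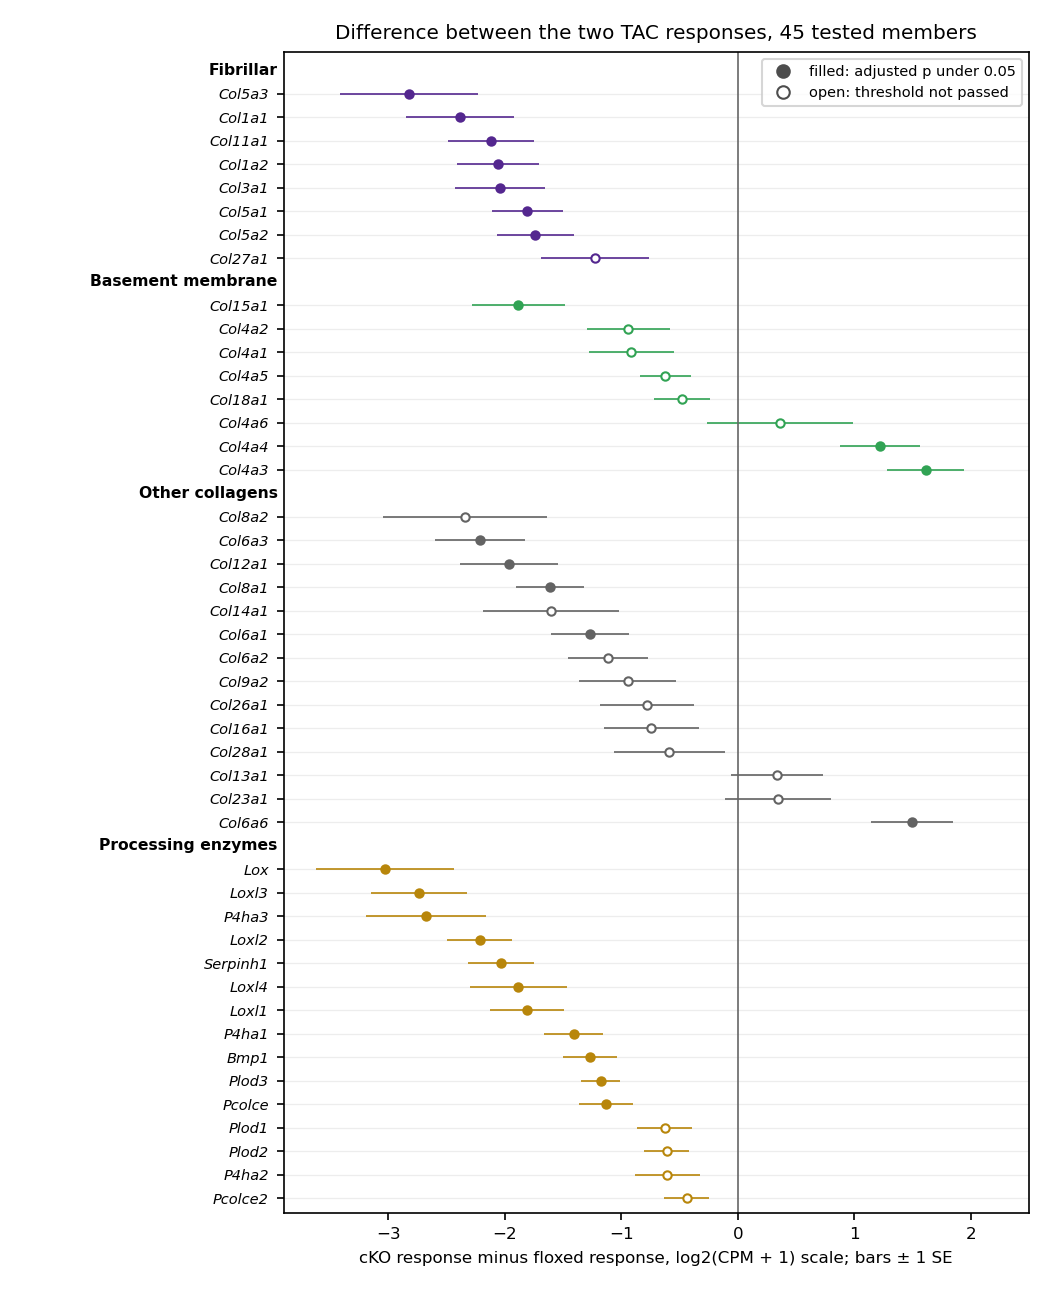
Difference between the TAC responses, cKO minus floxed, on the log2(CPM + 1) scale (x axis) for the 45 tested genes (y axis, grouped by role), with bars of 1 SE and filled points where the adjusted p is under 0.05. Of the 26 filled points 23 lie below 0, down to -3.03 for Lox, and 3 lie above 0, up to 1.61 for Col4a3.

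Values of the members with a let-7 match are given as a description, with no test. In floxed hearts the median TAC difference was 3.78 for the 7 members with a match and 1.99 for the 38 without. The genotype difference in TAC hearts had medians of -1.74 and -1.11, and in sham hearts of 0.07 and 0.11. The 7 with a match ranged from -2.23 to -0.03 in TAC hearts, and Lox, which has no let-7 match, was at -2.88. Among the fibrillar collagens, the 5 with a match differed in TAC hearts by -2.23 (Col1a1), -1.99 (Col1a2), -1.83 (Col5a2), -1.74 (Col3a1) and -1.12 (Col27a1), and the 3 without by -2.09 (Col11a1), -1.84 (Col5a1) and -1.67 (Col5a3), so the ranges overlapped. Col23a1 and Col26a1, the matched members that are not fibrillar, did not pass. For miR-29 the medians of the genotype difference in TAC hearts were -1.37 for 23 members with a match and -1.03 for 22 without.

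Of the other collagen-pathway genes, 2 of 32 were higher after TAC in cKO hearts, Adamts2 with 1.38 ± 0.21 (adjusted p = 0.0104) and the collagen receptor of uptake Mrc2 with 0.92 ± 0.18 (adjusted p = 0.0345). In TAC hearts 19 of 32 were lower in cKO than in floxed hearts and none was higher, with a median of -0.89, and the interaction passed for 14, of which 13 were below 0. P4hb differed by -1.22 ± 0.15 (adjusted p = 0.00109) between genotypes after TAC, and Mmp14 by -1.99 ± 0.35 (adjusted p = 0.0044). In the same comparison 3 of 6 activated fibroblast markers and 7 of 7 macrophage markers were lower in cKO hearts, 7 of 9 cardiomyocyte markers were higher, and none of 8 endothelial markers passed. Of 9 general fibroblast markers 2 were higher, 2 were lower and 5 did not pass. The part of these markers in the genotype differences was not tested.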

How the data were processed

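RNA of the left ventricle was sequenced in 8 samples as stranded mRNA libraries read from both ends. The deposited values are CPM made by the authors. Bowtie2 2.2.6, HTSeq, DESeq2 and the mm10 build are named per the submitters' processing notes, while the annotation, counting settings and strand use were not given in the sources used here. All CPM values came out as whole reads within a tolerance of 0.02 reads, which gave 10315902 to 21871570 reads per library. All columns were matched to a sample, and 0 were left unused.

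Of 13439 genes, the 13120 that reached 1 CPM in 2 or more libraries were tested in R 4.3.3 with limma 3.58.1 on log2(CPM + 1), with a trended variance, 1 coefficient per group over all 8 libraries and Benjamini-Hochberg adjustment over all genes tested. A value of ± after a log2 difference is its SE, and adding 1 CPM understates the change of low genes. The fit was tested on simulated data. Alternatives were a pseudocount of 0.25, no filter, RLE and TMM scaling, limma-voom, edgeR 4.0.16 and DESeq2 1.42.0 on the recovered reads, the compared groups alone, a replicate block, each library left out, and leaving out the 3 libraries above 20 CPM of Myl7. Per-library values were given for the main chains and enzymes of each role, for every member past the threshold in a genotype comparison or the interaction, and for the extremes of each role. The members and gene lists were chosen with earlier results of these data known. Coordinates are those of GRCm38 (mm10) in GENCODE M21, which also gave the transcript lengths and the 3′ UTRs. Same-numbered libraries of different groups had deviations that correlated at -0.11 to 0.08, so the numbers were not taken to pair them.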

Additional observations from a re-analysis of the deposited data

Results flagged for a closer look

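For 26 members the response to TAC differed between cKO and floxed hearts by the test of that difference itself (limma interaction, adjusted p under 0.05). On the log2 scale, as the response in cKO minus that in floxed hearts, the fibrillar collagens had -2.12 for Col11a1, -2.38 for Col1a1, -2.06 for Col1a2, -2.04 for Col3a1, -1.81 for Col5a1, -1.74 for Col5a2 and -2.82 for Col5a3. Among basement membrane collagens the values were -1.88 for Col15a1, 1.61 for Col4a3 and 1.22 for Col4a4. Among other collagens they were -1.97 for Col12a1, -1.27 for Col6a1, -2.21 for Col6a3, 1.5 for Col6a6 and -1.62 for Col8a1. The lysyl oxidases had -3.03 for Lox, -1.81 for Loxl1, -2.22 for Loxl2, -2.74 for Loxl3 and -1.89 for Loxl4. The remaining processing genes had -1.27 for Bmp1, -1.41 for P4ha1, -2.68 for P4ha3, -1.13 for Pcolce, -1.18 for Plod3 and -2.03 for Serpinh1. Col11a1 and P4ha3 would not have met the level needed for a test without the floxed TAC libraries, so their values are a description. Without floxed sham 1 the calls of Col8a1, Loxl2, Loxl3, Plod3 and Serpinh1 were kept and the other 21 were lost, and the cause was not tested.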

How the results depend on the processing

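No member past the threshold reversed under any alternative. Members called after TAC in floxed hearts numbered 36 to 40 with 1 library left out, against 40 with all. In cKO hearts the 13 calls became 23 with DESeq2, 5 with the compared groups alone, 4 without the 3 libraries with atrial transcripts and 6 to 22 with 1 library left out. The 34 calls between genotypes in TAC hearts became 22 to 36, and the 26 interaction calls 5 to 33, with 1 library left out. Leaving out a library also lowers the number of samples, and the cause of these changes was not tested. Sham hearts gave 0 members throughout. Calls among all genes in cKO hearts went from 332 to 133 with limma-voom, 691 with DESeq2, 48 with the compared groups alone, 62 without the atrial libraries and 73 to 614 with 1 library left out. In sham hearts they went from 7 to 2, 52 and 15 with the first 3 of these and 1 to 16 with 1 library left out. With 1 library left out, calls among all genes were 3618 to 5921 against 5562 for floxed TAC, 1330 to 3624 against 3263 for TAC hearts and 253 to 2918 against 1851 for the interaction. With the replicate number as a block the members called were 39 for floxed TAC, 17 for cKO TAC, 0 for sham, 35 for TAC hearts and 29 for the interaction. With the floxed TAC numbers crossed in the block, chosen after seeing the data, 41 were called in floxed hearts. With 2 libraries a group the spread rests on few samples, and members under the 3-read limit cannot be ranked.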
